A study of Mus musculus with 33 samples.

Results

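Albiflorin, a monoterpene glycoside of peony root, was tested at 3 doses on RAW264.7 cells, which grow from a mouse tumour induced by Abelson leukaemia virus and resemble macrophages. The 9 albiflorin arrays hold cells given lipopolysaccharide (LPS, 1 µg/ml) together with albiflorin at 1, 10 or 100 µg/ml for 6 h, with 3 biological replicates per dose. They were set against the 3 arrays of cells given LPS alone for 6 h. The members were chosen by their sample titles, 12 of the 33 arrays of the series. The rest of the series holds LPS with paeoniflorin or paeonol at the same doses (18 arrays) and 0.1% DMSO vehicle without LPS (3 arrays). All albiflorin comparisons below are therefore made within LPS-stimulated cells, and no array holds albiflorin without LPS. The cells are 1 line, so the replicates vary by culture and array and not by animal.

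LPS, a component of the outer wall of Gram-negative bacteria, binds Toll-like receptor 4 on macrophages. The receptor acts through NF-kappaB, AP-1 and interferon regulatory factors, which switch on cytokines, survival genes and, through secreted type I interferon, a large group of interferon-inducible genes. Peony root is used in East Asian herbal medicine, and its glycosides have been studied as modulators of inflammation. The comparison asks which transcripts of LPS-stimulated macrophages albiflorin raised or lowered, and at which dose.

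Each array carries 33012 gene probes, of which 19438 were tested because their signal was at least 3 times the noise on 3 or more of the 33 arrays. Levels are log2 of the quantile-normalised signal, so a difference of 1 is 2-fold, and the lowest level possible, the floor, is 7.37. A probe with signal over noise of at least 3 on an array is called detected there. The median signal of an array before normalisation ran from 335.9 to 1439.7 over the albiflorin arrays and from 660.8 to 1157.4 over the LPS arrays. Between 40.6% and 49.7% of gene probes were detected on an albiflorin array, and between 44.8% and 48.8% on an LPS array. The 2 dimmest arrays were replicate 2 at 10 and at 100 µg/ml. Their control spots also set them in another class of arrays than the LPS array of the same scan day, which held for these 2 of the 9 albiflorin arrays. Of the listed macrophage markers, Tlr7 and Cebpb were detected on 9 of 9 arrays with albiflorin and 3 of 3 with LPS alone. Sox11, the listed marker of other cells that was tested, was detected on 2 of 9 and 0 of 3. Gene names were available for few probes, 183 of those tested, so most of the transcriptome is described here by counts.

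Without a block, no transcript differed between albiflorin and LPS alone at an adjusted p under 0.05, and with the replicate number as a block 1 probe did, at 100 µg/ml. With all 9 albiflorin arrays pooled, 0 of 19438 probes were called (0%), and the smallest adjusted p in limma's moderated test was 0.282. At an unadjusted p under 0.05 there were 236 probes, 82 higher and 154 lower, where 5% of the tested probes would be 972. With the replicate number as a block the counts were 0 called and 326 at an unadjusted p under 0.05. A joint test of any difference from LPS at any dose called 0 probes (0%), with 383 at an unadjusted p under 0.05 and a smallest limma adjusted p of 0.551. Over all tested probes, 168 differed by 2-fold or more when pooled, 82 higher and 86 lower under albiflorin, and none passed the threshold. Among the 9719 brighter probes there were 12, all of them higher. The brighter probes were set by mean level over the same albiflorin and LPS arrays, so higher values under albiflorin favoured inclusion.

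**Figure D1:**
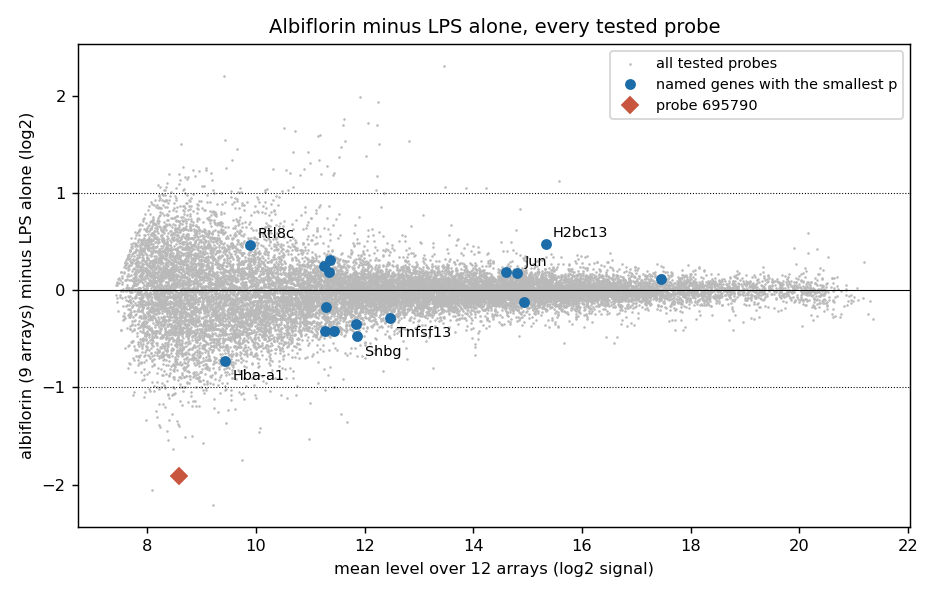
Log2 difference of the 9 albiflorin arrays from the 3 LPS arrays (vertical) against the mean log2 level over the 12 arrays (horizontal) for the 19438 tested probes. Blue points are the 8 higher and 8 lower named genes with the smallest p among those detected throughout a group, between -0.72 and 0.47, and the red diamond is probe 695790 at -1.91. Dotted lines mark 2-fold. The cloud is wide among dim probes and narrow among bright ones, and 0 probes passed the adjusted threshold.

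The single doses gave the same count. At 1 µg/ml 0 probes were called (0%) in limma, with 239 at an unadjusted p under 0.05, 115 higher and 124 lower, and with the replicate block there were 0 and 334. At 10 µg/ml 0 probes were called (0%), with 403 at an unadjusted p under 0.05, 99 higher and 304 lower, and with the block 0 and 521. At 100 µg/ml 0 probes were called (0%), with 361 at an unadjusted p under 0.05, 175 higher and 186 lower. With the replicate block, 1 probe was called at 100 µg/ml (0.00514%) and 589 had an unadjusted p under 0.05. Of the 602 probes that differed 2-fold or more at 10 µg/ml, 224 were higher and 378 lower. Dimmer probes made up 582 of them, 207 higher and 375 lower. The array of replicate 2 at this dose was also the one with the fewest detected probes, 40.6%, and the part of that in these counts was not tested.

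How small a difference the fit without a block could bound depended on the level of the transcript. Intervals with the replicate block are not given here. For the pooled comparison the 95% interval of the difference lay within 2-fold for 66.4% of all tested probes and within 1.5-fold for 41.8%. Among the 9719 brighter probes the shares were 92.4% and 74.4%, and among the 9719 dimmer probes 40.5% and 9.24%. At single doses the interval lay within 2-fold for 55.5%, 55.8% and 55.1% of all probes at 1, 10 and 100 µg/ml. The median half-width of the interval was 1.48-fold pooled and 1.62-fold at each dose. A change of 2-fold or more thus lay outside the interval for 92.4% of the brighter probes and 40.5% of the dimmer ones.

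**Figure D2:**
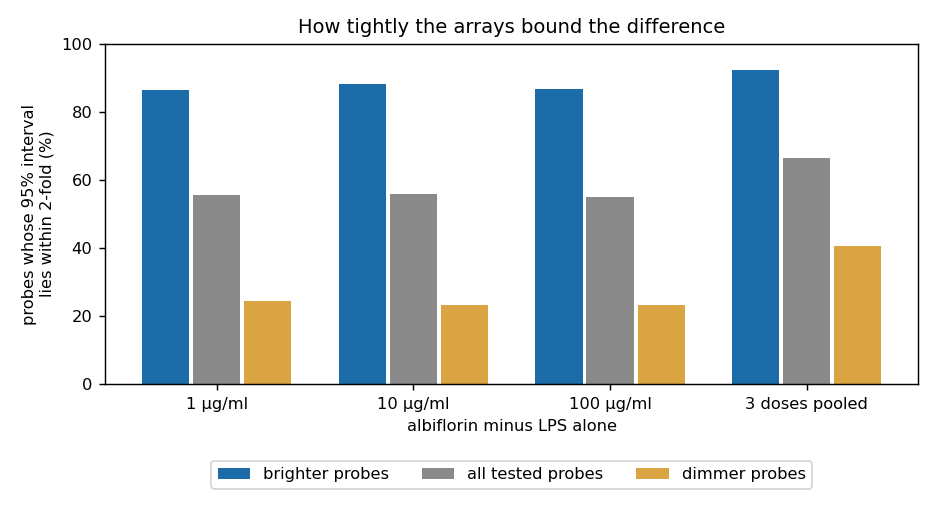
Percentage of probes whose 95% interval of albiflorin minus LPS alone lies wholly within 2-fold in either direction, for each dose and for the 3 doses pooled. Bars show the brighter 9719, all 19438 and the dimmer 9719 probes by mean level. Pooled, 92.4% of brighter and 40.5% of dimmer probes were bounded within 2-fold.

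Probe 695790, which has no gene name here, had the smallest p of the pooled comparison and of 100 µg/ml. Its levels were 7.37, 8.65 and 8.17 at 1 µg/ml, 8.68, 8.26 and 9.44 at 10 µg/ml and 7.37, 7.37 and 7.53 at 100 µg/ml, against 8.82, 9.9 and 11.3 on the LPS arrays. It was detected on 0 of 9 arrays with albiflorin and 2 of 3 with LPS alone, and it lay below the LPS array of the same replicate number on 9 of 9. At 100 µg/ml it was at least 5.72-fold lower, a bound because it was not above background there, with a fitted log2 difference of -2.58 ± 0.434 (SE). The limma adjusted p was 0.0714 without a block, 0.0387 with the replicate block and 0.114 with the array class by control spots as the block. Pooled it was at least 3.71-fold lower (-1.91 ± 0.354), with limma adjusted p = 0.282, or 0.152 with the replicate block. Its LPS level rests on replicates 2 and 3. Without LPS replicate 1 the difference at 100 µg/ml was -3.18, with limma adjusted p = 0.00143. Without LPS replicate 3 it was -1.94 with limma adjusted p = 1, and without LPS replicate 2 it was -2.64 with limma adjusted p = 0.196. With only the arrays compared in the fit, limma's adjusted p was 1. The vehicle mean was 7.88 ± 0.138 (SD, n = 3).

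The named genes that follow were detected on all 3 arrays of at least 1 of the groups compared, and the 8 with the smallest p in each direction are given. Of those higher under albiflorin the first was H2bc13, which encodes a histone H2B. It averaged 15.45 ± 0.235 on the albiflorin arrays, against 14.98 ± 0.581 on the LPS arrays (SD, n = 9 and 3), a difference of 0.47 ± 0.232 (SE, limma adjusted p = 1). Its levels were 15.6, 15.51 and 15.38 at 1 µg/ml, 15.51, 15.68 and 15.14 at 10 µg/ml and 15.6, 15.64 and 15 at 100 µg/ml, against 15.35, 15.27 and 14.31 on the LPS arrays. On 9 of 9 albiflorin arrays it stood above the LPS array of the same replicate number, but LPS replicate 3 was far below the others. Here, above and below, such counts of 9 use only 3 LPS arrays, for genes and probes picked by smallest p. The share of all tested probes at 9 of 9 is not given. Without that array the difference was 0.14, and the groups overlapped in every case except 1 µg/ml.

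Rtl8c, one of several near-identical genes derived from a retrotransposon, was also above the LPS array of its replicate number on 9 of 9 arrays. It read 9.8, 9.83 and 9.72 at 1 µg/ml, 10.35, 10.6 and 9.46 at 10 µg/ml and 9.99, 10.59 and 9.71 at 100 µg/ml, against 9.66, 9.75 and 9.21 on the LPS arrays. The difference was 0.46 ± 0.237 (SE, limma adjusted p = 1), and the groups overlapped. The next named gene, 9130023H24Rik, was 0.31 ± 0.171 higher, with 7 of 9 arrays above their LPS array. Jun, the AP-1 subunit, averaged 14.85 ± 0.157 against 14.68 ± 0.384 under LPS alone (SD, n = 9 and 3). Its difference was 0.17 ± 0.130 (SE), and without LPS replicate 3 it was -0.02. The others of the 8 were Med9, a Mediator subunit (0.19), Coa3, an assembly factor of cytochrome c oxidase (0.11), 1 of 3 probes for Prr18 (0.24) and Notum, a secreted enzyme that inactivates Wnt proteins (0.19). The other 2 Prr18 probes differed by 0.07 and -0.13, so its probes disagreed. All 8 had a limma adjusted p of 1. Without LPS replicate 3 the difference was 0.30 for Rtl8c, 0.17 for 9130023H24Rik, 0.08 for Med9 and 0.17 for Coa3, and without LPS replicate 2 it was 0.03 for Coa3.

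Of the 8 named genes lower under albiflorin, Shbg had the smallest p. It encodes sex hormone-binding globulin, a steroid carrier, and was detected on 0 of 3 vehicle arrays, 3 of 3 LPS arrays and 9 of 9 albiflorin arrays. It read 11.65, 11.38 and 12.2 at 1 µg/ml, 12.19, 11.16 and 12.07 at 10 µg/ml and 12.08, 11.31 and 11.67 at 100 µg/ml, against 12.36, 11.55 and 12.74 on the LPS arrays. It was below the LPS array of the same replicate number on 9 of 9 arrays, by 0.38, 0.26 and 0.77 on average for replicates 1, 2 and 3. The pooled difference was -0.47 ± 0.254 (SE, 95% interval -0.99 to 0.05, limma adjusted p = 1), and the groups overlapped because LPS replicate 2 was low. The vehicle mean was 8.37 ± 0.148 (SD, n = 3), so Shbg stayed far above vehicle on every albiflorin array.

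Tnfsf13 encodes APRIL, a TNF-family cytokine that acts on B cells. It was also below its LPS array on 9 of 9. Its levels were 12.57, 12.64 and 12.48 at 1 µg/ml, 12.4, 12.59 and 12.33 at 10 µg/ml and 12.43, 12.08 and 12 at 100 µg/ml, against 12.61, 12.89 and 12.52 on the LPS arrays. All 3 arrays at 100 µg/ml lay below all 3 LPS arrays, a difference of -0.50 ± 0.215 (SE, limma adjusted p = 1). The differences were -0.11 at 1 µg/ml and -0.23 at 10 µg/ml, and the slope was -0.20 ± 0.107 log2 per 10-fold dose. Jmjd4, a hydroxylase of a translation termination factor, was lower on 9 of 9 arrays as well (-0.42 ± 0.346 SE, limma adjusted p = 1). The others of the 8 were Hba-a1, an alpha globin gene (-0.72), Zfp146 (-0.35), Smcr8 (-0.17), the kinase anchor Akap7 (-0.42) and the SNARE protein Snap47 (-0.12). Each had a limma adjusted p of 1. Several of these values moved by over 1.5 times without 1 array. Without LPS replicate 3 the difference was -0.21 for Shbg, -0.42 for Hba-a1, -0.06 for Zfp146, -0.07 for Smcr8, -0.26 for Akap7 and -0.07 for Snap47. Without LPS replicate 2 it was -0.81 for Shbg, -0.17 for Tnfsf13 and -0.28 for Smcr8, and without LPS replicate 1 it was -0.23 for Jmjd4. Without replicate 2 at 10 µg/ml it was -0.21 for Akap7 and -0.07 for Snap47, without replicate 3 at 10 µg/ml -0.65 for Akap7, and without replicate 2 at 100 µg/ml -0.22 for Zfp146.

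**Figure D3:**
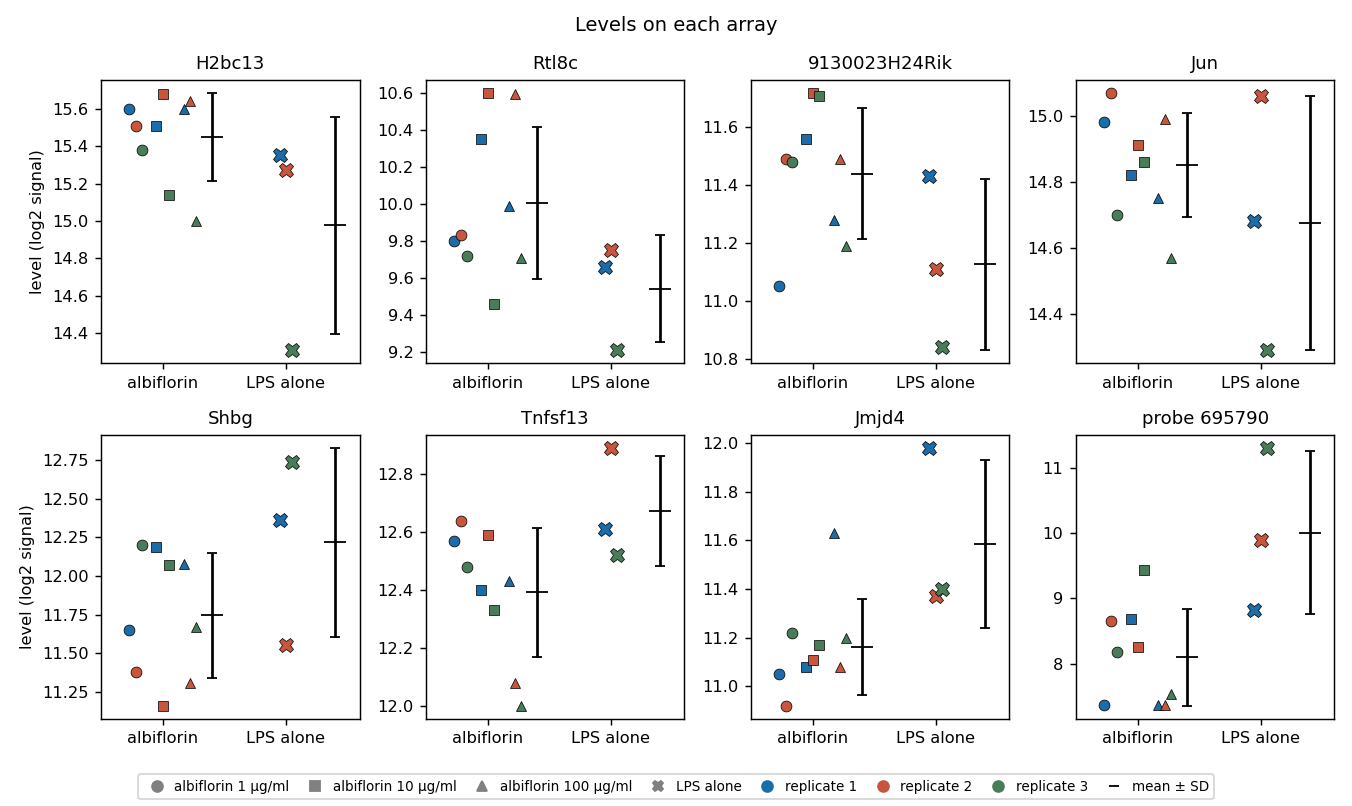
Log2 level on each array for 7 named genes and probe 695790, with the 9 albiflorin arrays left (marker shape for dose) and the 3 LPS arrays right (crosses). Colours mark the replicate number, which the arrays of one scan day share, and black bars give the mean ± SD. H2bc13 and Rtl8c stand above, and Shbg, Tnfsf13, Jmjd4 and probe 695790 below, the LPS array of the same colour on 9 of 9 arrays, but only probe 695790 came near the threshold. The 9 arrays share 3 LPS arrays, and the genes shown were picked from those with the smallest p. How many of all tested probes reach 9 of 9 is not given.

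At the single doses the 4 named genes each way with the smallest p, by the same detection rule, were partly those above and partly others. At 1 µg/ml they included Elf4 (0.38 ± 0.222 SE) and the olfactory receptor gene Olfr1189 (0.73) on the higher side, and Pdxp (-0.52 ± 0.323), Smcr8 (-0.30) and Trmt61a (-0.32) on the lower. At 10 µg/ml 9130023H24Rik (0.53 ± 0.210), Rtl8c (0.59 ± 0.290), H2bc13 (0.47) and Plin3 (0.25) were higher, and Ndn (-0.92 ± 0.402), Krtap9-3 (-0.35), Olfr338 (-0.72) and Olfr982 (-0.52) were lower. At 100 µg/ml Rtl8c (0.56 ± 0.290), Aldh3a2 (0.32), H2bc13 (0.44) and Mt3, a metallothionein (0.30), were higher, and Tnfsf13, Nupr1l (-0.44), Shbg (-0.53) and Smcr8 (-0.30) were lower. Limma's adjusted p was 1 for each gene at each dose.

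Groups that did not overlap at all were rare. Of 19090 probes with values on all 12 arrays, 19 had all 9 albiflorin arrays above all 3 LPS arrays (0.0995%) and 20 had them below (0.105%). Among the 180 named probes with all values there was 1 each way, and the following genes were picked out after their values were seen. Gpr27, an orphan G protein-coupled receptor, read 9.72 to 10.55 with a median of 9.92 under albiflorin, against 9.29, 9.04 and 9.11 under LPS alone. It was detected on 5 of 9 arrays with albiflorin and 0 of 3 with LPS alone. The difference of its means is thus a bound of at least 1.77-fold (fitted 0.83 ± 0.332 SE, limma adjusted p = 1). Fam124b read 8 to 9.21, with a median of 8.83, under albiflorin, against 9.38, 9.93 and 9.65 under LPS alone. It was detected on 0 of 9 albiflorin arrays, and its mean was at least 1.90-fold lower (fitted -0.92 ± 0.499 SE, limma adjusted p = 1). Paqr9 had no value on 1 albiflorin array. On the other 8 it was below every LPS array, but it was not above background there. Its fitted difference was -1.04 ± 0.354 (SE, limma adjusted p = 1). At single doses the groups did not overlap for 359 probes higher (1.86%) and 447 lower (2.32%) at 1 µg/ml. The counts were 368 (1.91%) and 611 (3.17%) at 10 µg/ml, and 447 (2.33%) and 700 (3.64%) at 100 µg/ml.

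Detection on the array was also compared. No probe was detected on 9 of 9 arrays with albiflorin and 0 of 3 with LPS alone, and 3 were detected on 0 of 9 and 3 of 3. With 1 exception allowed on the albiflorin side, 0 probes were detected on at least 8 of 9 and 0 of 3, and 18 on at most 1 of 9 and 3 of 3. At single doses, the probes detected on all 3 arrays of the dose and on 0 of 3 with LPS alone numbered 25 at 1 µg/ml, 3 at 10 µg/ml and 25 at 100 µg/ml. Those detected on 0 of 3 at the dose and 3 of 3 with LPS alone numbered 39, 74 and 29. All these counts are out of 33012 gene probes. The arrays at 10 µg/ml had 47.1%, 40.6% and 42.7% of gene probes detected, against 44.8% to 48.8% on the LPS arrays. The part of that in the counts was not tested. Unnamed probes with the smallest p among those detected throughout a group were 566885 and 696001, higher under albiflorin, and 474707 and 432053, lower. Probe 566885 was detected on 4 of 9 arrays with albiflorin and 0 of 3 with LPS alone and was at least 2.41-fold higher (fitted 1.27 ± 0.385 SE). Probe 474707 was detected on 0 of 9 and 3 of 3 and was at least 2.51-fold lower (fitted -1.33 ± 0.330 SE). Probe 696001 differed by 0.98 ± 0.315 and probe 432053 by -0.78 ± 0.214 (SE). Probe 432053 lay below the LPS array of its replicate number on 9 of 9 arrays, at 9.45 to 11.04 under albiflorin, against 10.89, 11.05 and 11.08 under LPS alone. Limma's adjusted p was 1 for all 4.

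The size of the LPS response with albiflorin differed from that with LPS alone by less than the spread between replicates. To measure it on probes that neither the albiflorin nor the LPS arrays had chosen, probes were taken that differed at least 2-fold between the 9 arrays of LPS with paeoniflorin and the 3 vehicle arrays at an adjusted p under 0.05. These were 1656 probes, 841 risen (4.33% of those tested) and 815 fallen (4.19%). The 9 arrays include paeoniflorin 10 µg/ml replicate 1, whose median correlation with the other arrays was the lowest of the series (0.906). On the albiflorin arrays the median response over these probes, in log2 above vehicle, was 1.70 ± 0.128 at 1 µg/ml, 1.61 ± 0.216 at 10 µg/ml and 1.65 ± 0.191 at 100 µg/ml, against 1.61 ± 0.132 on the LPS arrays (SD, n = 3 each). In percent of the LPS response the 3 doses gave 105.9%, 100.1% and 102.7%, and 102.9% when pooled. All 4 groups share the vehicle arrays.

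Measured against the LPS array of the same replicate number, in the direction of the response, the 9 arrays differed by 0.01 ± 0.078 (SD over the 3 replicate numbers). The lowest was -0.09, at 1 µg/ml replicate 3. The highest was 0.32, at 1 µg/ml replicate 1, and the other 8 lay at 0.02 or below. The response was below the LPS array on 6 of 9 arrays. Over the risen probes alone it was below on 8 of 9, with -0.03, -0.11 and -0.11 at 100 µg/ml. The fallen probes differed there by 0, -0.20 and -0.05 in level, where a lower level is a larger response. All probes differed there by -0.006, -0.087 and 0.002. Among the 1656 response probes 0 were called between albiflorin pooled and LPS (0%) by limma, and 15 had an unadjusted p under 0.05. The median pooled difference was -0.01 over the risen probes and -0.06 over the fallen ones, beside -0.02 over all tested probes.

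Of the named response genes, Ifi202b, an interferon-activated gene of the p200 family, read 19.5 to 20.41 with a median of 19.96 under albiflorin, against 19.63, 20.24 and 20.01 under LPS alone. The vehicle mean was 15.31 ± 0.401 (SD, n = 3). The difference between albiflorin and LPS alone was 0.03 ± 0.192 (SE, 95% interval -0.37 to 0.42), so a loss of 2-fold lay outside the interval. Csprs read 16.47 to 17.2, against 16.7, 16.95 and 16.64 under LPS alone (-0.02 ± 0.191). Trim34a, a tripartite motif gene, read 13.38 to 14.29, against 13.46, 13.96 and 13.62 (0.11 ± 0.273). Bcl2a1b, a survival gene of the Bcl2 family, read 19.77 to 20.35, against 20.25, 19.9 and 20.06 (-0.03 ± 0.140). The albiflorin range of each of these 4 genes reached both above and below its LPS values.

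Nlrp3, the sensor of the inflammasome, was wider. It read 12.16, 11.66 and 10.93 at 1 µg/ml, 11.33, 11.68 and 11.14 at 10 µg/ml and 10.74, 11.21 and 11.91 at 100 µg/ml, against 10.84, 11.92 and 11.92 on the LPS arrays. Its 95% interval ran from -0.91 to 0.63, so a 1.5-fold change in either direction is not bounded for it. Amigo3 (0.00), the adaptor gene Grap (0.01) and C130026I21Rik (0.06) differed little in the pooled mean.

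Of the named genes that were lower in the LPS response, 0 were called between albiflorin and LPS alone by limma. Nanos1, an RNA-binding regulator of translation, read 8.37 to 10.21 under albiflorin, against 9.89, 9.18 and 8.6 under LPS alone, with a vehicle mean of 12.30 ± 0.120 (SD, n = 3). Nanos1 was detected on 2 of 9 arrays with albiflorin and 0 of 3 with LPS alone, so these levels are near background. H2bc18, a second histone H2B gene, read 11.36 to 12.28, against 12.7, 11.83 and 11.69. H2bc18 was detected on 0 of 9 arrays with albiflorin and 1 of 3 with LPS alone and was at least 1.19-fold lower (fitted -0.26 ± 0.254 SE, limma adjusted p = 1). C130050O18Rik read 11.87, 12.13 and 12.51 at 1 µg/ml and 12.49 to 14.07 at the higher doses, against 14.09, 12.07 and 13.68 under LPS alone. Its difference was -1.10 ± 0.497 at 1 µg/ml (SE, unadjusted p = 0.0359, limma adjusted p = 1) and -0.37 ± 0.406 pooled, and it was detected on 4 of 9 arrays with albiflorin and 2 of 3 with LPS alone. AY074887, unlike the others here, was higher in the LPS response (1.46 between LPS with paeoniflorin and vehicle). It read 7.65 to 9.73, against 9.26, 9.4 and 8.22 (0.32 ± 0.507). Tnfaip8l1 read 8.27 to 10.49, against 9.16, 8.3 and 8.84, and was detected on 0 of 9 and 0 of 3, so it has no fold. Flcn, the folliculin tumour suppressor (-0.29 ± 0.321), Vars2, the mitochondrial valyl-tRNA synthetase (-0.17 ± 0.310), Mblac1 (-0.14 ± 0.339) and Tbc1d16, a Rab GTPase-activating protein (0.00 ± 0.222), were likewise not called. Frat2, which binds glycogen synthase kinase 3, read 8.06 to 8.72 on the 8 albiflorin arrays with a value, against 7.37, 7.37 and 8.35 under LPS alone. It was detected on none of these arrays, so no fold is given. Several named genes here, among them the histone genes, Ifi202b, Bcl2a1b, Trim34a, Hba-a1 and H2-Q7, have close relatives whose transcripts a probe may share.

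**Figure D4:**
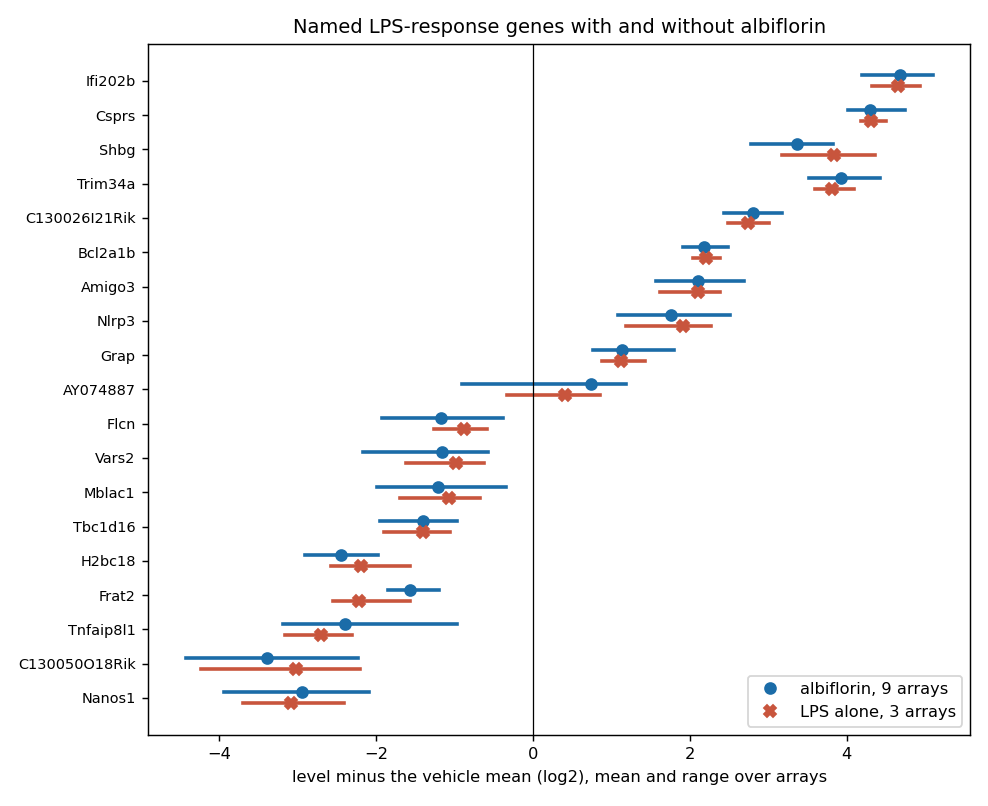
Log2 level minus the vehicle mean for the 19 named LPS-response genes, with the mean and range over 9 albiflorin arrays (blue, upper) and over 3 LPS arrays (red, lower) on each line. The albiflorin ranges overlap the LPS ranges for every gene shown, from Ifi202b at the top to Nanos1 at the bottom.

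Further genes of innate sensing, interferon, signalling and metabolism were counted from lists. Of 191 listed genes 30 were named on the array and 29 were tested, and 0 probes of any list were called (0%) by limma. Of these probes 1, for Eif4ebp1, had an unadjusted p under 0.05. All 3 tested innate receptors and adaptors were below 0 in the pooled difference, with a median of -0.02, the median of all tested probes being -0.02. Tlr7, an endosomal receptor for single-stranded RNA, differed by -0.02 ± 0.341, and Wdfy1, an endosomal adaptor protein, by -0.01 ± 0.412 (SE). Of 5 interferon-inducible genes 4 were above 0 and 1 below, with a median of 0.04 and a range of -0.02 to 0.11. H2-Q7, a class I histocompatibility gene, read 19.22 to 19.61, against 19.39, 19.54 and 19.32 under LPS alone.

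Of 10 probes for 9 signalling and transcription genes, 9 were above 0 and 1 below, with a median of 0.10 and a range of -0.03 to 0.69. Cebpb, a transcription factor of the LPS response, had 2 probes, which differed by 0.12 ± 0.146 and 0.32 ± 0.570 (SE). Stat5a and Stat5b, transducers of cytokine receptors, differed by 0.08 ± 0.355 and 0.01 ± 0.140. The ETS factor Elf4 differed by 0.09 ± 0.181 and Ikbip, named for binding an NF-kappaB kinase, by 0.05 ± 0.302. The highest value of the list, 0.69, belonged to Sox11, which is also the marker of other cells and was detected on 0 of 3 LPS arrays.

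Of 4 translation and mTORC1 genes 1 was above 0 and 3 below, with a median of -0.25, where 45.4% of all tested probes were above 0. Eif4ebp1, a repressor of cap-dependent translation, read 7.49 to 8.85 with a median of 8.27 under albiflorin, against 9.17, 9.72 and 7.95 under LPS alone. Its difference was -0.77 ± 0.333 (SE, limma adjusted p = 1), and it was detected on 1 of 9 arrays with albiflorin and 2 of 3 with LPS alone, so the comparison is made near background. Within replicate numbers the difference was -1.15, -1.47 and 0.32, so replicate 3 ran the other way. Rraga, a Rag GTPase that brings mTORC1 to the lysosome, was well above background and differed by 0.13 ± 0.142. Of 3 mediators, Tnfsf13 is described above, and Ntn1 and Fgf21 each reached a high value on 1 albiflorin array, 12.37 at 100 µg/ml replicate 3 and 12 at 100 µg/ml replicate 2. Their medians were 8.01 and 7.90 on the albiflorin arrays, and they were detected on 1 and 2 of 9. Of 5 tested genes listed as oxidation, xenobiotic and lipid enzymes, 2 were above 0 and 3 below, with a median of -0.08. That list also holds Shbg, a carrier, and Coa3, an assembly factor, which are not enzymes.

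**Figure D5:**
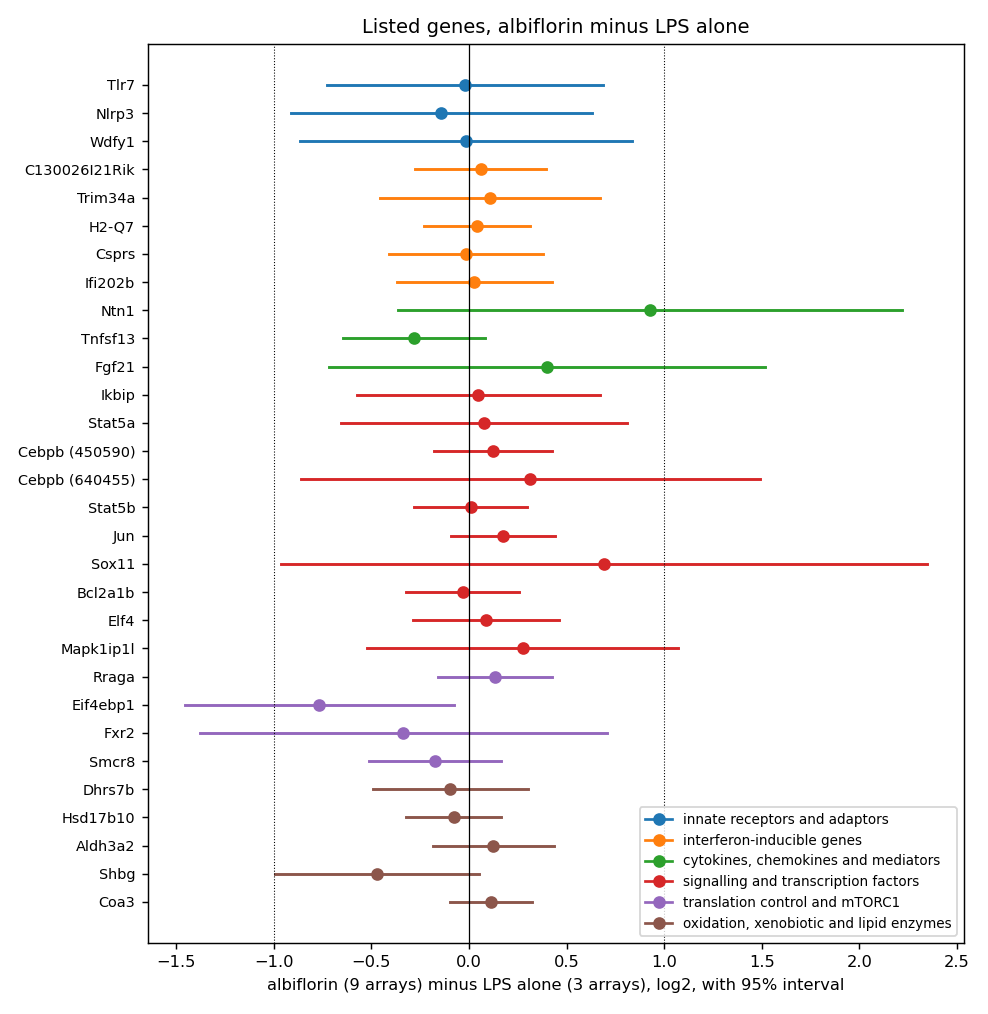
Pooled difference of albiflorin from LPS alone (log2) with its 95% interval for the 30 tested probes of the lists, one line each, coloured by the first list that holds the gene. Dotted lines mark 2-fold. The intervals of the interferon-inducible genes lie within 2-fold, while those of dim genes such as Sox11, Ntn1 and Fgf21 reach beyond it.

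No dose order was found among the 3 doses at the adjusted threshold. The test between doses called 0 of 19438 probes (0%) in limma, with 517 at an unadjusted p under 0.05, or 797 with the replicate block. The slope over log10 dose called 0 probes (0%), with 640 at an unadjusted p under 0.05, 331 rising and 309 falling with dose, or 951 with the block. Aldh3a2, the fatty aldehyde dehydrogenase, read 13.19, 13.06 and 13.43 at 1 µg/ml, 13.28, 13.55 and 13.46 at 10 µg/ml and 13.46, 13.82 and 13.58 at 100 µg/ml. Its slope was 0.20 ± 0.092 log2 per 10-fold dose (SE, limma adjusted p = 1), and the 3 LPS arrays read 13.5, 13.19 and 13.21. The 3 arrays at 100 µg/ml thus lay within or above the LPS range, and those at 1 µg/ml within or below it.

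Elf4 had the smallest p of the named genes whose slope was negative. It read 12.85, 13.2 and 13.18 at 1 µg/ml, 12.66, 12.71 and 12.76 at 10 µg/ml and 12.4, 12.4 and 12.86 at 100 µg/ml, a slope of -0.26 ± 0.111 (SE, limma adjusted p = 1). The LPS arrays, at 12.33, 13.06 and 12.69, spanned nearly the whole of that range. Pdxp, a pyridoxal phosphatase, had a slope of 0.34 ± 0.162, Tcp10b one of 0.62 ± 0.315 and Lst1, a leukocyte-specific transcript, one of -0.20 ± 0.114. The values of Tcp10b differed mainly between single arrays, from 12.24 at 1 µg/ml replicate 2 to 14.59 at 100 µg/ml replicate 2.

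Ndn, the gene for necdin, had the smallest p between doses among the named genes detected throughout a group. It read 9.61, 9.71 and 9.95 at 1 µg/ml, 9.49, 7.87 and 8.98 at 10 µg/ml and 10.65, 10.48 and 9.56 at 100 µg/ml, against 9.51, 9.5 and 10.07 on the LPS arrays. It was lowest at the middle dose, so it had no single direction over the series. Plin3, a lipid droplet coat protein, and Nupr1l were the next named genes. Nupr1l ran the other way round, with its highest values, 11.1, 11.27 and 11.04, at 10 µg/ml. All 3 had a limma adjusted p of 1.

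Albiflorin was also set against the other compounds over the same 3 doses, with LPS present throughout. Paeoniflorin is an isomer of albiflorin with the same sugar and benzoyl group, and paeonol is an unrelated small phenolic ketone. Against the 9 paeoniflorin arrays 0 of 19438 probes were called (0%) in limma. There were 1045 at an unadjusted p under 0.05, 313 higher and 732 lower under albiflorin, and the smallest adjusted p was 0.685. With the replicate block 0 were called, 2177 had an unadjusted p under 0.05, and the smallest limma adjusted p was 0.0855. With the array class by control spots as the block 0 were called and 2726 had an unadjusted p under 0.05. The classes are not evenly spread between albiflorin and paeoniflorin, and their part in these counts was not tested. The paeoniflorin array of replicate 1 at 10 µg/ml stood apart from the series. Its median correlation with the other arrays (0.906) and its detected share (38.2%) were the lowest of the 33. It enters the spread that all tests share, and 0 probes were called without it as well. The 95% interval of the difference lay within 2-fold for 81.6% of probes and within 1.5-fold for 49.7%. Among named genes detected throughout a group the smallest p values were those of Nanos1 (-0.72 ± 0.256), Snap47 (-0.24 ± 0.093) and Trim59 (-0.18), lower under albiflorin, and of Stat5b (0.23 ± 0.099), 9130023H24Rik (0.27) and the dimmer of the Cebpb probes (0.88 ± 0.403), higher under albiflorin. Each had a limma adjusted p of 0.685.

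Against the 9 paeonol arrays 5 of 19437 probes were called (0.0257%), 1 higher and 4 lower under albiflorin, and none of the 5 has a gene name here. With the replicate block the count was 498 (2.56%), and with the array class by control spots as the block it was 1019. The class is nearly confounded with this comparison, since all 9 paeonol arrays and 2 of 9 albiflorin arrays fall in the same class. Probe 541442 averaged 10.48 ± 0.525 under albiflorin and 8.78 ± 1.14 under paeonol (SD, n = 9 each), a difference of 1.70 ± 0.280 (SE, limma adjusted p = 0.018). It was detected on 9 of 9 albiflorin arrays, 2 of 9 paeonol arrays and 2 of 3 LPS arrays, with means of 9.95 under LPS alone and 7.77 with vehicle. Probe 604718 averaged 16.14 ± 0.328 under albiflorin and 17.03 ± 0.719 under paeonol (-0.89 ± 0.124 SE, limma adjusted p = 0.00189). Its means were 16.15 under LPS alone and 17.49 with vehicle.

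No named gene passed the threshold against paeonol without a block. Those with the smallest p that are not given below were 9130023H24Rik (0.44 ± 0.121 SE) and C130026I21Rik (0.40 ± 0.115), higher under albiflorin, and Nupr1l (-0.51 ± 0.149), lower. With the replicate block 6 did, each by limma's adjusted p. Lst1 was 0.44 ± 0.136 higher under albiflorin, at 0.193 without and 0.0292 with the block. Snap47 was 0.29 lower (-0.29 ± 0.093), at 0.193 and 0.0292, and Nanos1 was 0.98 lower (-0.98 ± 0.256), at 0.143 and 0.0447. Ikbip (-0.49), the RNA methyltransferase subunit gene Trmt61a (-0.40) and Mapk1ip1l (-1.18) were also lower. Mapk1ip1l was detected on 0 of 9 albiflorin arrays and 1 of 9 paeonol arrays, so its value is near background. Nanos1 averaged 9.35 ± 0.606 under albiflorin, 10.33 ± 0.764 under paeonol and 9.22 ± 0.644 under LPS alone (SD, n = 9, 9 and 3).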

How the data were processed

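Per the file headers, the deposited scanner tables hold 3 values of each spot: its signal (a linear intensity, not normalised across arrays, from its values), a score of signal over noise, and a flag for quality. The log2 values that the authors processed were deposited as 1 more table. How they were normalised is not given in the sources used here, and they served as an alternative only. The 303 control spots were left out, spots with a flag above 5000 were set missing, signals were quantile normalised, floored at the 5th percentile (165.7) and taken to log2. Probes with signal over noise of at least 3 on 3 or more arrays were tested.

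All 33 arrays entered 1 linear model with 11 group means (limma 3.58.1, R 4.3.3, lmFit and eBayes, 2-sided). The Benjamini-Hochberg adjustment ran over all tested probes, with a threshold of 0.05. The script was tested on simulated data. Intervals are 95%. A bound sets the brighter group's mean against the higher, on each array, of the dim probe's signal and the lowest detected one. It compares means only and leaves out the spread between arrays, so a 95% interval can reach below it. The number of arrays limits the precision.

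Names came from RefSeq accessions and symbols (GRCm38.p6, names only), for 317 of 33012 probes. None of 27930 probes with a Celera identifier was named. Among named genes detected on all 3 arrays of a compared group, the text names the 8 each way of smallest p for the pooled comparison, 4 each way at each dose and 3 each way for slopes, doses and other compounds. List members, named response genes and up to 2 unnamed probes each way are added. Of the probes called against paeonol only in alternatives, the named ones are given. The members, lists and tests were chosen with earlier results of these data known.

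The headers give 1 scan day to all arrays of a replicate number (3 of 3 numbers), so the numbers pair the samples. The deviations of 9 of 9 albiflorin and LPS pairs correlated over 0.1 (0.163 to 0.511). The highest rank correlation of 2 arrays was 0.940, so no array was taken as a duplicate. Control spots set the arrays in classes of 10, 7 and 16. These classes were seen in the data and are no labelled batch.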

Additional observations from a re-analysis of the deposited data

Results flagged for a closer look

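5 probes differed between albiflorin and paeonol, both with LPS, by the test of that difference itself, over 9 arrays each. Probe 541442 was higher under albiflorin (log2 difference 1.70). Probe 604718 was lower (-0.89), and so were probes 416209 (-1.10), 785382 (-0.70) and 610705 (-0.58). Probe 416209 averaged 9.23 ± 0.505 under albiflorin, 10.33 ± 0.230 under paeonol and 9.60 ± 0.353 under LPS alone (SD). Probe 785382 averaged 10.89 ± 0.176, 11.58 ± 0.278 and 11.09 ± 0.096 in the same order, and probe 610705 15.66 ± 0.203, 16.25 ± 0.572 and 15.70 ± 0.211. Limma's adjusted p was 0.00189, 0.0246 and 0.036 for these 3. On the arrays of one control-spot class, replicate 2 at 10 and 100 µg/ml of each compound, the differences were -0.68, -0.39 and -0.95, and those of 541442 and 604718 were 1.66 and -1.29. These are values of 2 arrays against 2, with no test.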

How the results depend on the processing

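For albiflorin pooled, at each dose, at any dose, between doses and in the slope, 0 probes were called by limma also with the array class as a block, the authors' processed values, no detection filter, detection on at least 9 arrays, no floor, flagged spots kept, an intensity trend with robust variances, the compared groups alone, and both dim albiflorin arrays left out. At 100 µg/ml 1 probe, 695790, was called with the replicate block and 1 with median scaling. Leaving out 1 array gave 0 to 2 calls at 1 µg/ml, 0 to 4 at 10 µg/ml, 0 to 1 at 100 µg/ml, 0 to 3 pooled, 0 to 2 at any dose, 0 to 2 between doses and 0 to 1 for the slope. These calls arose without LPS replicate 1 (3 pooled, 2 at 1 µg/ml, 1 at 100 µg/ml and 1 at any dose) or LPS replicate 3 (1 pooled and 1 at 1 µg/ml), or without albiflorin 1 replicate 2 (2), 1 replicate 3 (1, the slope) or 10 replicate 1 (4, 2 at any dose and 2 between doses). They fell on 11 distinct probes. 1 was named, Olfr993, called without albiflorin 10 replicate 1. It was detected on 3 of 9 arrays with albiflorin and 0 of 3 with LPS alone. Against paeoniflorin 0 probes were called in every alternative. Against paeonol the 5 calls became 498 with the replicate block, 1019 with the array class, 1 with median scaling, 2 with the authors' values, 3 with no filter, 12 with detection on at least 9 arrays, 18 with the trend and robust variances, 1 with the compared groups alone, 2 without both dim arrays and 2 to 59 without 1 array, the highest without paeonol 10 replicate 2. The causes were not tested. The replicate block changed no other call. Median scaling moved the median pooled difference of all probes to -0.12, against -0.02, and Coa3 turned to -0.056, still above that median. Without 1 array Notum ran from -0.0098 (without LPS replicate 2) to 0.412 and Jun from -0.0187 (without LPS replicate 3) to 0.365. The LPS response level moved by less than its replicate spread in 33 alternatives, among them -0.03 to 0.05 without 1 array. A block by array lot from the file headers was not run, since the headers give no lot. Dim probes set the limit: the interval lay within 2-fold for 40.5% of them.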
